A study of Mus musculus with 12 samples.

Results

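The enzymes that make and break down prostaglandins were followed in the testis of aging mice through 10 genes, Ptgs1, Ptgs2, Ptgds, Hpgds, Ptges, Ptges2, Ptgis, Tbxas1, Hpgd and Ptgr1. A gene was taken as all rows of the deposited transcript table that carry its symbol and a class code of =, c, j or o, which mark a match to a RefSeq transcript or a form that overlaps one. All 10 were found, with 14 transcripts among 71967, and they are 10 of 24516 genes with a symbol in the table. Testis RNA came from wild-type C57BL/6 mice, an inbred strain, at the ages of 3, 6, 12 and 18 months (3M, 6M, 12M and 18M), with 3 libraries per age that the study's methods call biological replicates. Whether mice of an age shared a litter is not known from those methods, and if libraries of an age shared a source, the p-values cover only the spread between these libraries. Whole testis was sequenced, so a level is a mean over germ cells and somatic cells. In such tissue fewer cells of a type and less RNA per cell cannot be told apart.

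Prostaglandins are lipid signals made from arachidonic acid, which phospholipases free from membranes. The cyclooxygenases Ptgs1 and Ptgs2 turn it into prostaglandin H2, and separate synthases then make prostaglandin D2, prostaglandin E2, prostacyclin or thromboxane from that one intermediate. Hpgd and Ptgr1 inactivate the products step by step. In the testis, prostaglandins are known from Leydig, Sertoli and peritubular cells, and Ptgds, also called beta-trace, is a protein of seminal fluid as well as of cerebrospinal fluid.

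The 12 libraries held 50924104 to 71803379 estimated reads. The tissue carried its defining transcripts: the summed level of 8 spermatid markers lay between 14571 and 20838 CPM (reads scaled to the library size, with TMM normalization), that of 9 Sertoli markers between 150.3 and 200.2 CPM and that of 8 Leydig markers between 556 and 1340 CPM. Of 10 epididymal markers 3 (Lcn5, Lcn6 and Adam7) had no read in any library and the others had some, led by Ros1 with a mean of 1.22 CPM. Of the mast cell markers 4 of 6 (Cma1, Tpsb2, Mcpt4 and Fcer1a) had no read.

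Ptgds had 4 of the 14 transcripts, and the sequence around its annotated start is shown because the assembled transcripts splice into it. The RefSeq transcript NM_008963 starts at chr2:25469749 on the minus strand of mm10 and has 7 exons and 805 nt. The other 3 were assembled by the authors, and MSTRG.11058.1, MSTRG.11058.2 and MSTRG.11058.3 (2036, 2069 and 1312 nt) begin further upstream, at 25471288 or 25470749, and join their first exon to base +16 of the RefSeq transcript. The 280 bases from 250 before to 30 after the RefSeq start, at chr2:25469720-25469999 on the minus strand (RefSeq, GRCm38.p6, the build also called mm10), read as follows, with capitals on bases +14 and +15, which stand directly before the assembled exon.
Ptgds start: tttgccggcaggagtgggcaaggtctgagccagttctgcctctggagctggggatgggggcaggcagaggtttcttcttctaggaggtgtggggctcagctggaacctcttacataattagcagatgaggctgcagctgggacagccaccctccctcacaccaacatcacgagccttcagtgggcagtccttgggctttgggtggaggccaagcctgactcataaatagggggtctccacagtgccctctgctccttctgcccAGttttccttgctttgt

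The capital letters are AG, the letters that end an intron at nearly every splice acceptor, behind a stretch rich in t and c. GENCODE vM21, on the same build, lists 5 transcripts of Ptgds, 3 of them coding, and the most upstream of them starts at 25470046. The first exon of MSTRG.11058.1 and MSTRG.11058.2 (chr2:25470010-25471288) was covered thinly. Over the 12 libraries its coverage on the FPKM scale (fragments scaled to transcript length and library size) was 1.06 ± 0.107 (SD), which is 0.287% to 0.743% of the coverage of exons 2 to 5, the internal exons that all 4 transcripts share.

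The second difference between the Ptgds transcripts lies at the end of exon 6. MSTRG.11058.1 ends that exon 33 nt early and leaves out 25467287 to 25467319, just behind the coding part, which GENCODE places between 25467329 and 25469673. The 30 bases at chr2:25467305-25467334 on the minus strand (GENCODE vM21, GRCm38) are shown because they hold the early end of that exon, with capitals on the first bases left out. The RefSeq end of the exon, at 25467287, lies beyond them.
Ptgds exon 6: caagagtaaacgcagGTgagagaagtcagt

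The capitals are GT, the letters with which nearly every intron starts. The stretch of 33 nt had 26.7 ± 5.85% (SD, n = 12) of the coverage of the shared internal exons, from 20.1% in 6M-1 to 41.6% in 18M-3. The last exon, which all 4 transcripts keep, had only 39.3 ± 2.99%, so coverage of Ptgds was lower at its 3′ end as well.

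**Figure D1:**
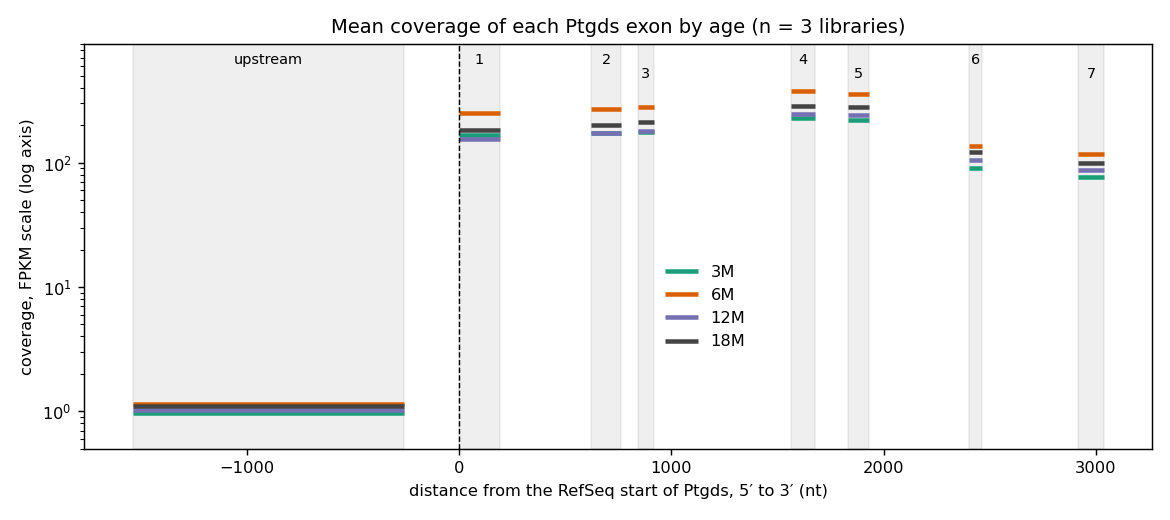
Coverage of each Ptgds exon (grey bands, numbered as in RefSeq, with the assembled upstream exon at the left) against the distance from the RefSeq start in nt; lines are means of 3 libraries per age on a log axis, on the FPKM scale. The upstream exon sits near 1, while exons 1 to 7 have means over the 12 libraries of 95.2 to 283, and the 6M line is the highest in every numbered exon.

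The order of the 10 genes was read from the FPKM, since only a value per length compares genes. Ptgds stood first with a mean of 98.3 ± 31.2 FPKM (SD, n = 12), above 96.6% of the genes with a symbol. Ptgr1 followed with 8.20 ± 1.01 FPKM, and its range of 7.03 to 10.8 overlapped neither neighbour in the order. Hpgd (3.45 ± 0.649 FPKM), Ptgis (2.64 ± 0.258 FPKM) and Ptges2 (2.41 ± 0.214 FPKM) formed the next group, in which each range overlapped that of the next gene. These 5 genes had a mean of 1 FPKM or more. Ptges (0.609 ± 0.0739 FPKM) and Hpgds (0.425 ± 0.0696 FPKM) overlapped each other, as did Tbxas1 (0.126 ± 0.0726 FPKM) and Ptgs1 (0.0994 ± 0.0482 FPKM). Ptgs2 was last, with a mean of 0.00279 FPKM.

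The length behind an FPKM mattered for some of these levels. With the mean coverage of the internal exons of the RefSeq transcript in place of the whole length, a measure chosen after seeing the data, Ptgds rose to 228 ± 56.6, 2.32 times its summed FPKM. This measure leaves out the upstream exon of 1279 nt, with a mean coverage of 1.06 on the FPKM scale. It also leaves out RefSeq exons 1 (190 nt, 189) and 7 (120 nt, 95.2). The parts of these exons in the move were not separated. Ptgr1 moved to 14.3 ± 2.05 and Ptges2 to 3.93 ± 0.410, which put Ptges2 above Hpgd (3.40 ± 0.849) and Ptgis (2.63 ± 0.295). Hpgds moved down to 0.248 ± 0.113. The other places in the order stayed as they were.

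**Figure D2:**
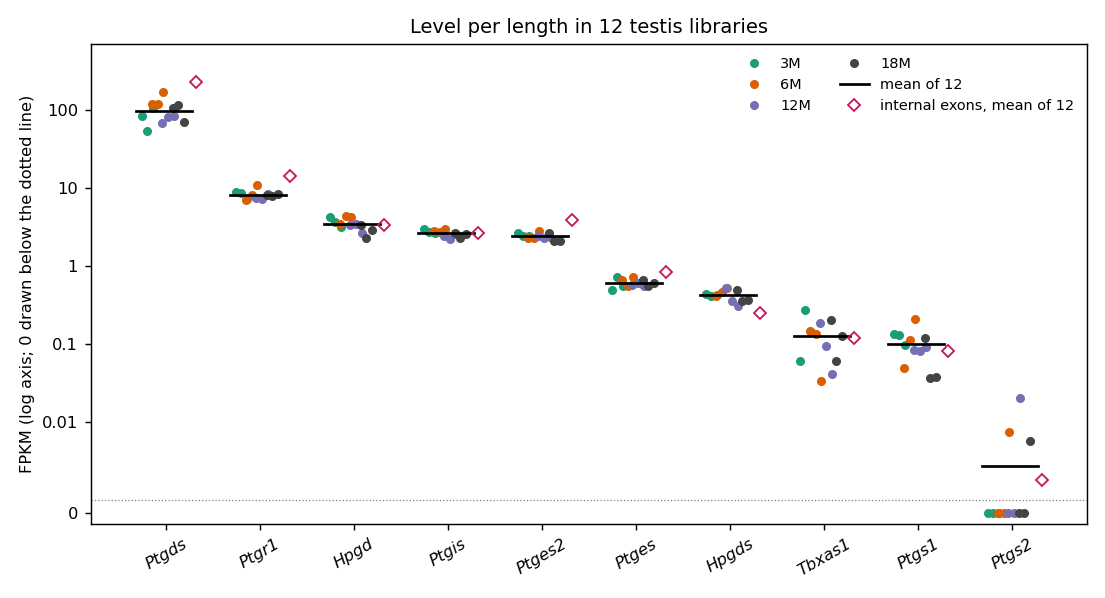
FPKM of the 10 genes in the 12 libraries (points, colored by age) on a log axis, with the mean of 12 as a bar and the mean level over internal exons as a diamond; libraries at 0 are drawn below the dotted line. Ptgds lies above 53 FPKM in every library, 5 genes have a mean of 1 FPKM or more, and Ptgs2 is at 0 in 9 of 12 libraries.

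The question put to each gene was whether its level differed between the ages. Reads were summed per gene and tested with edgeR (quasi-likelihood F-test, Benjamini-Hochberg adjustment over all genes). A gene was called at an adjusted p of 0.05 or less. For a pair of ages its log2 fold change also had to reach at least 1 in either direction. Of the 10 genes, 9 passed the filter on low counts in each test, and Ptgs2 did not. None of the 9 was called in any of the 6 tests. The slope of the log2 level per month was called for 43 of 25204 genes (0.171%), and in the test for any difference among the 4 ages 20 (0.0794%). Between ages, 13 of 24605 genes were called from 3M to 18M (0.0528%), 15 of 24568 from 3M to 6M (0.0611%), 8 of 24591 from 6M to 12M (0.0325%) and 5 of 24649 from 12M to 18M (0.0203%). With shares this low in the whole table, the absence of a call among 9 genes is no result about them.

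Before adjustment, a p of 0.05 or less was reached by 2 of the 9 genes in the test of the slope (Hpgd and Ptgis), where 15.4% of all genes reached it, and by 1 in the test for any difference (Ptgds), against 9.04% of all genes. From 3M to 6M it was reached by 1 (Ptgds, against 3.94% of all genes) and from 6M to 12M by 3 (Ptgds, Ptgis and Hpgd, against 7.49%). From 3M to 18M and from 12M to 18M it was reached by none, while 2961 and 881 genes of the whole table reached it. With DESeq2 a single gene was called, Ptgds, in the test for any difference (adjusted p = 0.0182), where DESeq2 called 379 of 29652 genes (1.28%). Ptgds also had a DESeq2 adjusted p of 0.000202 from 6M to 12M, which 125 of 29021 genes (0.431%) matched at 0.05 or less, but its fold change lay under the minimum for a call.

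**Figure D3:**
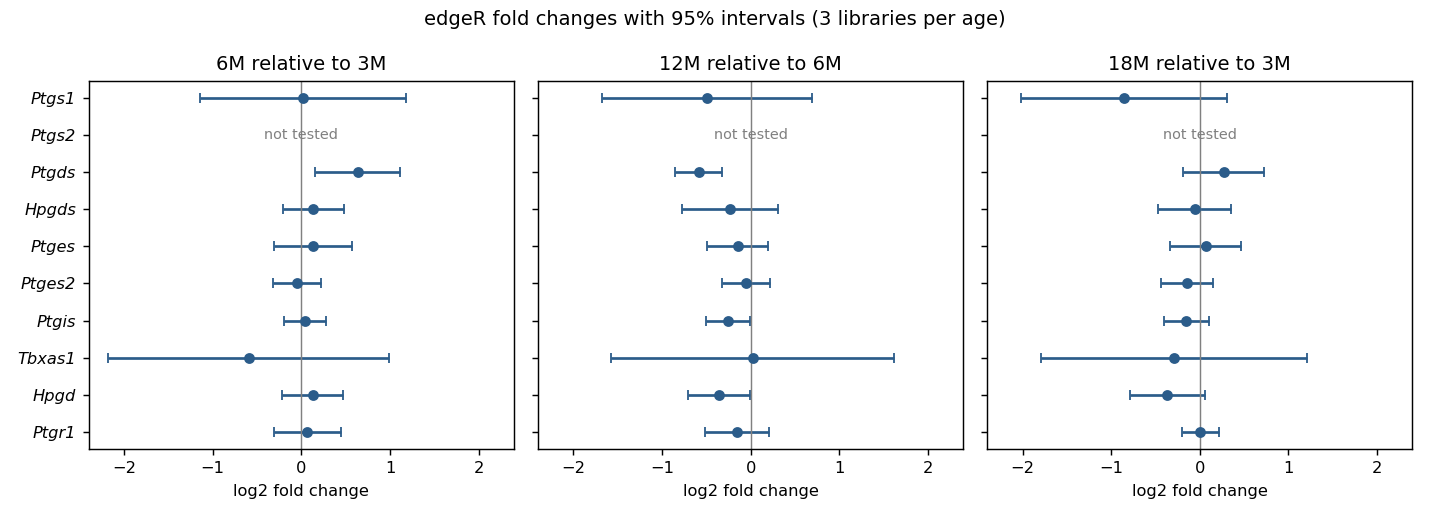
Log2 fold changes of the 10 genes between 3M and 6M, 6M and 12M, and 3M and 18M (points) with 95% intervals from edgeR, 3 libraries per age; positive values are higher at the older age. Only Ptgds from 3M to 6M, and Ptgds, Ptgis and Hpgd from 6M to 12M, have intervals that leave out 0, and Ptgs2 was not tested.

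The cyclooxygenases were nearly silent in this tissue. Ptgs1, the constitutive form, had 22, 23 and 18 reads in the 3M libraries (0.420, 0.404 and 0.313 CPM) and 8, 18 and 36 at 6M (0.158, 0.357 and 0.633 CPM). It had 16, 14 and 18 reads at 12M (0.271, 0.262 and 0.284 CPM) and 21, 7 and 9 at 18M (0.371, 0.132 and 0.125 CPM). The 18M libraries 18M-2 and 18M-3 were the lowest of all 12, but 18M-1 lay inside the range at 3M. The log2 fold change from 3M to 18M was -0.86 with a 95% interval from -2.02 to 0.30 (edgeR adjusted p = 0.506), so no difference was detected. The parts of low depth and of the spread between libraries in this wide interval were not separated. Without 18M-1 the log2 fold change was -1.54, with an edgeR adjusted p of 0.310.

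Ptgs2, the form that inflammation and ovulation induce, had 10 reads in all. There were 6 in 12M-3, 2 in 6M-3 and 2 in 18M-3, and 0 in the other 9 libraries, where a count of 0 allows up to 0.0504 to 0.0589 CPM (3 reads per library, for counting error alone). The reads of 12M-3 covered 3 of the 10 annotated exons, and those of 6M-3 and 18M-3 covered 1 each. No fold change between ages is given, since each age held at least 2 libraries at 0. The antisense RNA next to it, Ptgs2os, had no read in any library.

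The 2 synthases of prostaglandin D2 stood far apart. Ptgds, the lipocalin-type synthase, had 160.5, 101.5 and 168 CPM at 3M and 196, 213 and 263 CPM at 6M. It had 141, 149 and 156 CPM at 12M and 185, 183 and 149.6 CPM at 18M. Each of the 3 libraries at 6M lay above the 9 libraries of the other ages, and the lowest value was that of 3M-2. From 3M to 6M the log2 fold change was 0.64 ± 0.20 (SE) with an edgeR adjusted p of 0.990, and from 6M to 12M it was -0.59 ± 0.11 with an edgeR adjusted p of 0.431. Across 20 alternatives the adjusted p of the test for any difference (0.452 with edgeR) ran from 0.0182 with DESeq2 to 0.861.

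The groups of Ptgds did not overlap between 3M and 6M, and it was the only one of the 9 genes for which this held, where 9.47% of all genes did not overlap. Between 6M and 12M the groups of 3 of the 9 (Ptgds, Ptgis and Hpgd) did not overlap in CPM, against 14.9% of all genes. Between 3M and 18M and between 12M and 18M no gene of the 9 was free of overlap, against 19.4% and 9.02% of all genes. From 3M to 18M Ptgds differed by 0.27 on the log2 scale (95% interval -0.19 to 0.73).

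Coverage of the internal exons 2 to 6, summed over the transcripts, comes from the same reads as the counts, so it is no separate support. There the level of Ptgds was 255, 277 and 361 at 6M on the FPKM scale, while the other 9 libraries lay between 129 and 243. In exon 6 alone 18M-3 had 131, above 6M-1 (109) and 6M-2 (119). In exon 7 18M-2 had 107, above 6M-1 (97.3) and 6M-2 (105.55). The reads of NM_008963 alone, 10.8% of those of the gene, gave a log2 fold change of 1.10 from 3M to 6M, with a 95% interval from -0.15 to 2.34. This transcript had 846, 528 and 988 reads at 3M and 2280, 1648 and 748 at 6M, which depend on the assembler's division of shared reads. Without 6M-3, the library with the highest level of the gene, the log2 fold change of Ptgds as a whole was 0.51 from 3M to 6M and -0.46 from 6M to 12M. Markers of other cells moved over the same ages. The summed level of 7 macrophage markers was 57.4 to 67.0 CPM at 6M, above both 3M (51.9 to 57.1 CPM) and 12M (44.8 to 56.1 CPM), while 18M reached 46.0 to 61.7 CPM. That of 8 Leydig markers was 827 to 1340 CPM at 6M, which overlapped 3M (886 to 1060 CPM) and lay above 12M (637 to 706 CPM). Single genes weighed heavily in both sums. At 6M Insl3 had 661 ± 240 CPM (SD, n = 3) of a Leydig mean of 1030 CPM, and Mrc1 had 29.5 CPM of a macrophage mean of 62.8 CPM. The 10 epididymal markers summed to 2.11 to 2.60 CPM at 6M and 1.11 to 1.93 CPM elsewhere, without overlap. Of that sum Ros1 alone had a mean of 1.58 CPM at 6M, and Lcn5, Lcn6 and Adam7 were at 0. The part of the macrophage, Leydig and epididymal signal in the level of Ptgds was not tested.

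The reads of Ptgds were split unevenly, within ages as well as between them. MSTRG.11058.1 took 38.6% to 59.8% of them in each library. MSTRG.11058.2 took 0.575% in 6M-3 but 58.8% in 18M-3, and NM_008963 took 2.63% to 22.9%. The upstream exon of MSTRG.11058.1 and MSTRG.11058.2 had a mean coverage of only 1.06 on the FPKM scale, against 189 for RefSeq exon 1. These shares of reads therefore do not give the amount of each form. MSTRG.11058.3 had 4173 reads in 3M-3, 7909 in 6M-3, 3214 in 18M-2, 149 in 12M-3 and 0 in the other 8. In the first 3 of these MSTRG.11058.2 had 86 to 403 reads, and both share 7 exons, so a level of either alone depends on the assembler's division of shared reads. Of the 14 transcripts 13 were tested for the slope with edgeR and none was called, where 6 of 58289 transcripts passed (0.0103%) and 4167 had a p of 0.05 or less, and 12 were tested from 3M to 18M with none called, where 59 of 54472 passed (0.108%) and 2941 had a p of 0.05 or less. DESeq2 called none of them in either test.

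**Figure D4:**
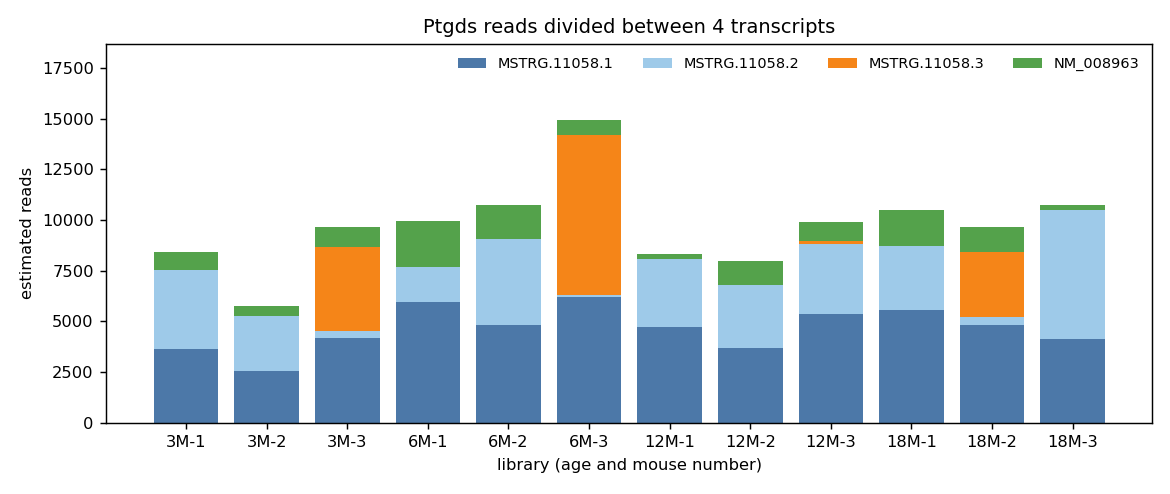
Estimated reads of Ptgds in each library (bars, from 0), divided between the RefSeq transcript NM_008963 and 3 assembled transcripts. MSTRG.11058.3 appears in 3M-3, 6M-3 and 18M-2, with 149 reads in 12M-3, and MSTRG.11058.2 nearly vanishes in the first 3 of these.

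Hpgds, the glutathione-dependent synthase of mast cells and other immune cells, had 1.55, 1.44 and 1.53 CPM at 3M and 1.48, 1.66 and 1.83 CPM at 6M. It had 1.86, 1.29 and 1.09 CPM at 12M and 1.77, 1.27 and 1.29 CPM at 18M. The ages overlapped throughout, and from 3M to 18M the log2 fold change was -0.06 (95% interval -0.47 to 0.35). Within a library the FPKM of Ptgds was 128 to 321 times that of Hpgds, with a median of 241. Coverage of Hpgds was also uneven: its last exon had 0.459 ± 0.0762 on the FPKM scale, while exons 1 to 4 had means of 0.0849 to 0.139 and exon 5 had the highest, 0.716 ± 0.281. A transcript of Smarcad1 ends at chr6:65116725, short of the end of Hpgds at chr6:65117293, and reads from both strands were counted alike, since the libraries were not stranded.

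Among the 10 genes, Ptges and Ptges2 make prostaglandin E2. Ptges, the inducible enzyme of the endoplasmic reticulum, had 1.93, 2.83 and 2.15 CPM at 3M and 2.58, 2.18 and 2.81 CPM at 6M. It had 2.29, 2.45 and 2.12 CPM at 12M and 2.60, 2.21 and 2.41 CPM at 18M, with overlap between all ages. The log2 fold change from 3M to 18M was 0.07 (95% interval -0.34 to 0.47). Per base, the first exon of 208 nt (chr2:30903090-30903297) had 440.0% to 1623% of the coverage of the last exon, which is 3356 nt long.

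Ptges2, a constitutive enzyme of the Golgi membrane, had 5.59, 5.04 and 5.16 CPM at 3M and 4.75, 4.85 and 5.73 CPM at 6M. It had 5.03, 4.93 and 4.88 CPM at 12M and 5.52, 4.39 and 4.37 CPM at 18M. The 12M values were the closest together, and the 18M values were both among the highest and the lowest. From 3M to 18M the log2 fold change was -0.14 (95% interval -0.44 to 0.15). Over its internal exons the level of Ptges2 was 4.30 ± 0.288 (3M), 4.08 ± 0.320 (6M), 3.69 ± 0.233 (12M) and 3.66 ± 0.505 (18M) on the FPKM scale. There, as in CPM, 12M lay below 3M without overlap, with 5.03 against 5.04 CPM at the closest point. The share of all genes without overlap between 3M and 12M was not counted. The FPKM of Ptges2 was 3.33 to 5.44 times that of Ptges within a library.

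Ptgis, the cytochrome that makes prostacyclin, had 5.63, 5.06 and 4.93 CPM at 3M and 5.30, 5.19 and 5.61 CPM at 6M. It had 4.61, 4.19 and 4.71 CPM at 12M and 4.99, 4.24 and 4.80 CPM at 18M. All 3 libraries at 12M lay below all 3 at 6M, a pair of ages at which 14.9% of all genes did not overlap. The 12M libraries also lay below those at 3M, a pair for which no such share was counted. From 6M to 12M the log2 fold change was -0.25 ± 0.10 (SE, edgeR adjusted p = 0.667), and the slope was -0.0144 per month (95% interval -0.0279 to -0.0009, edgeR adjusted p = 0.301). Neither passed the test.

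Tbxas1, the cytochrome that makes thromboxane, had between 5 and 34 reads. It had 0.134, 0.597 and 0.313 CPM at 3M and 0.315, 0.297 and 0.0879 CPM at 6M, 0.407, 0.206 and 0.0948 CPM at 12M and 0.442, 0.132 and 0.278 CPM at 18M. The libraries of each age spanned at least a 3-fold range. From 3M to 18M the log2 fold change was -0.29 with a 95% interval from -1.79 to 1.21, and without 3M-2 it was 0.34. Coverage fell on exons 4 to 13, and exons 1 to 3 had none in any library.

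Breakdown starts with Hpgd, the NAD-dependent dehydrogenase that oxidizes the hydroxyl group prostaglandins need for their action. It had 7.81, 6.72 and 5.89 CPM at 3M and 6.48, 8.18 and 7.72 CPM at 6M. It had 6.20, 6.41 and 4.87 CPM at 12M and 6.24, 4.18 and 5.39 CPM at 18M. The 12M libraries lay below the 6M libraries, with 6.41 against 6.48 CPM at the closest point, and 18M overlapped 3M through 18M-1. Over the internal exons of Hpgd 6M and 12M did overlap. There the levels were 3.48, 4.655 and 3.40 at 6M and 3.27, 4.155 and 2.37 at 12M on the FPKM scale. The slope was -0.0307 per month on the log2 scale (95% interval -0.0537 to -0.0077) with a p of 0.0130 before and 0.221 after adjustment in edgeR. From 6M to 12M the log2 fold change was -0.36 ± 0.15 (SE, edgeR adjusted p = 0.667), and from 3M to 18M -0.36 ± 0.18 (edgeR adjusted p = 0.455). Over 20 alternatives the adjusted p of the slope ran from 0.0946 with DESeq2 to 0.417, so no alternative gave a call.

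Ptgr1, the reductase of the next step, which also acts on leukotriene B4, had 21.9, 20.6 and 18.0 CPM at 3M and 17.2, 20.4 and 26.0 CPM at 6M. It had 18.2, 18.2 and 20.8 CPM at 12M and 19.9, 19.6 and 21.0 CPM at 18M. Its log2 fold change from 3M to 18M was 0.00, and its 95% interval from -0.20 to 0.21 was the narrowest of the 9 tested genes. The ratio of the FPKM of Ptgr1 to that of Hpgd had means of 2.24 ± 0.148 (3M), 2.13 ± 0.367 (6M), 2.48 ± 0.524 (12M) and 2.93 ± 0.580 (18M), with the SD of 3 libraries.

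**Figure D5:**
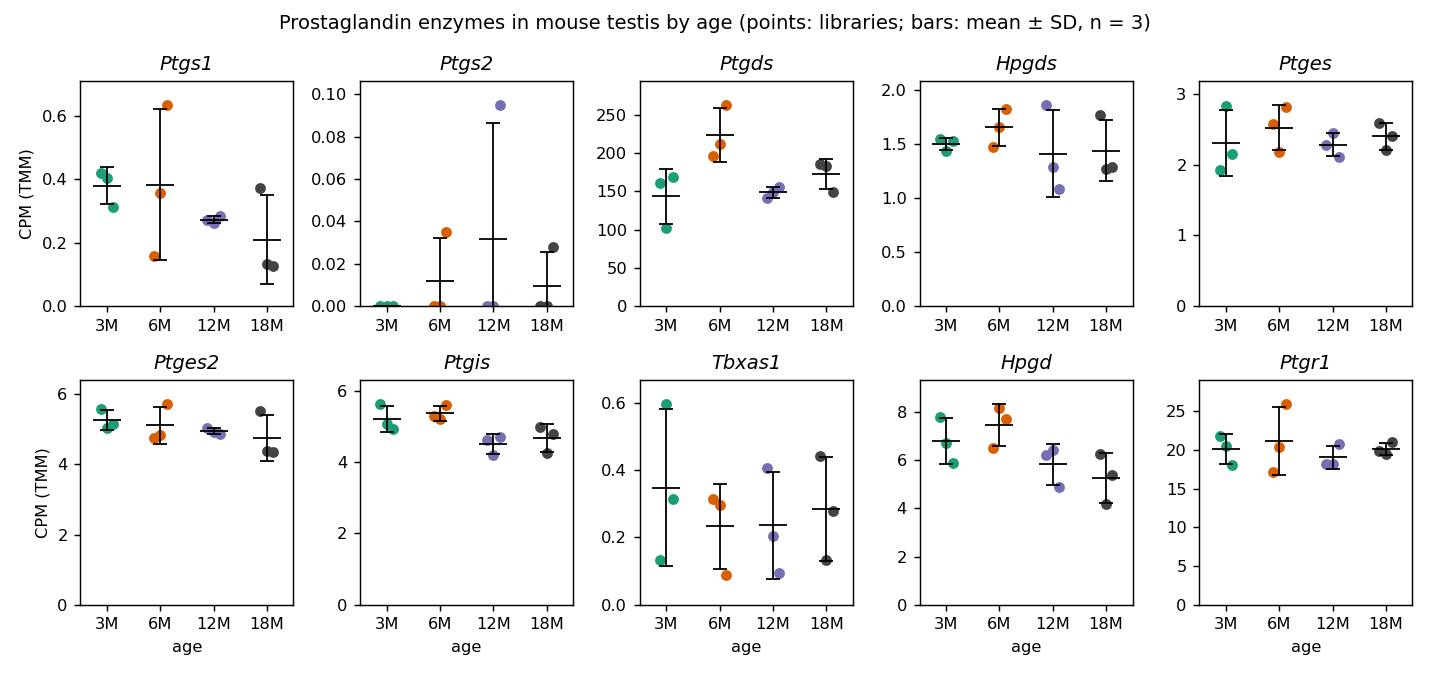
CPM of each gene in the 12 libraries (points) by age, with mean ± SD (bars, n = 3) and axes from 0. The 3 libraries at 6M hold the highest Ptgds values (196 to 263 CPM), Hpgd and Ptgis lie lower at 12M than at 6M, and Ptgs2 has reads in 3 libraries only.

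All 9 tested genes had a slope below 0, with a median of -0.0094 per month beside 0.0002 over all genes, but the slope of Ptges was as small as -0.0001 and turned above 0 without the filter, with rows of every class, with rows of class = alone, with the replicate block and with limma on FPKM. Without 6M-3, 6 of 9 lay below 0. From 3M to 18M 6 of the 9 were lower and 3 higher, with a median of -0.14 beside 0.01 over all genes. From 6M to 12M 8 of 9 were lower, with a median of -0.23 beside 0.00 over all genes. Over the same step the Leydig, epididymal, macrophage, endothelial and Sertoli markers had medians of -0.60, -0.45, -0.35, -0.23 and -0.16, with 3 of the 10 epididymal markers tested. Blood, mast cell and peritubular myoid markers had medians of -0.07, -0.04 and -0.03, with 3 of 6 blood and 1 of 6 mast cell markers tested. The medians of spermatogonia, spermatocyte and fat markers were 0.01, 0.02 and 0.20. The spermatid markers had a median of 0.17, with 8 of 8 higher and 3 at a p of 0.05 or less. The part of these cell types in the values of the 9 genes was not tested. Of the 8 Leydig markers 2 were called in the edgeR test of the slope, Cyp11a1 and Cyp17a1, both enzymes of steroid synthesis. Both fell with age (-0.11 and -0.10 per month, adjusted p = 0.00530 and 0.000125). Of the 8 markers 7 had an edgeR p of 0.05 or less for the slope before adjustment, and 1, Hsd3b1, had a slope above 0 (0.0020 per month).

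The rest of the pathway was described from 5 lists, and none of their genes was called in the slope or between ages. Among phospholipases that release arachidonic acid, 13 of 16 listed genes were tested for the slope and 3 had a p of 0.05 or less (2 higher, 1 lower), with a median slope of 0.0067 per month. Pla2g6, the calcium-independent enzyme, was the most abundant of them with 330.1 CPM (89.8 FPKM). Of the other prostanoid enzymes, 9 were tested and 1 had such a p, with a negative slope. The median slope of the 9 was -0.0068 per month. Ptges3, a cytosolic synthase of prostaglandin E2 that is also a chaperone partner, led them with 161 CPM (77.0 FPKM), above Ptges2 and Ptges on the same FPKM scale.

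Receptors were far lower than the enzymes that lead the order. Of 11 receptors 7 were tested and none had a p of 0.05 or less for the slope. Ptgdr, the receptor of prostaglandin D2, was the most abundant with 4.50 CPM (1.72 FPKM). All 5 transporters were tested, with none at a p of 0.05 or less, and Slco3a1 led them with 79.8 CPM (23.2 FPKM). Of the lipoxygenases and leukotriene enzymes all 9 were tested, again with none, and Lta4h, which makes leukotriene B4, led with 26.3 CPM (9.32 FPKM). The medians of these 3 lists were 0.0040, -0.0048 and 0.0022 per month.

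The genes whose pattern over the 12 libraries was most like that of Ptgds were Cyb5d2, Serpina3n and Sh3bp2, among 20256 genes and loci with a mean of 1 CPM or more. Likeness was the correlation of log2(CPM + 1), and the points share libraries and ages, so it is a description. Cyb5d2 had a Pearson r of 0.92 and a Spearman rho of 0.81, and an r of 0.75 without the 2 libraries farthest from the median of Ptgds. For Serpina3n, a secreted protease inhibitor of inflammation, these were 0.90, 0.96 and 0.90, and its level was 1.75 ± 0.666 CPM (3M), 4.19 ± 2.41 CPM (6M), 1.44 ± 0.233 CPM (12M) and 1.92 ± 0.773 CPM (18M; SD, n = 3). For Sh3bp2 they were 0.87, 0.75 and 0.60.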

How the data were processed

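Per the labels and the study's methods, ribosomal RNA was removed from testis RNA, and paired-end libraries were made that do not keep the strand. The authors aligned reads to mm10 with HISAT2 and assembled transcripts with StringTie (1.3.3b per the file headers), and the submitters' processing notes name the same tools. The deposited read counts are estimated counts: in all 12 libraries they equal coverage times length over a read length of 101, rounded up. The deposited FPKM values are those StringTie gave the authors for each library. The members and the gene lists were chosen with earlier results of these data known.

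Counts were summed per gene and tested with edgeR 4.0.16 (R 4.3.3) after TMM normalization and filterByExpr, with Benjamini-Hochberg adjustment over all genes. Pairwise fits held only the libraries of both ages. The alternatives were DESeq2 1.42.0, limma 3.58.1 on log2(FPKM + 0.1), other scalings, filters and classes of rows, pairwise fits that held all 12 libraries, the replicate number as a block, and each library left out. FPKM were summed per gene for levels. The mean coverage of internal exons, a measure added after seeing the data, was brought to the FPKM scale of its library. In simulated counts for 3M against 18M, edgeR called 99 of 200 genes changed 2-fold and 191 of 200 changed 4-fold. Beside these it made 5 and 25 false calls, among 24337 and 24330 genes. In the test of the slope the same changes were spread over 3M to 18M. There it called 152 and 196 of 200, with 8 and 12 false calls among 25021 and 25017 genes. The changes were placed only in genes with a higher mean count than Ptgs1, Tbxas1 and Ptgs2, so these shares do not cover genes at such low counts. Named were all 10 genes, transcripts with 10% or more of the reads of their gene, list genes that passed a call and otherwise the most abundant gene of each list, and the 3 genes most like Ptgds. Sums, levels and plots were made in Python 3.11.15 with numpy 2.4.6, pandas 2.3.3 and matplotlib 3.10.9.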

Additional observations from a re-analysis of the deposited data

How the results depend on the processing

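None of the 9 tested genes was called by edgeR under any alternative, and DESeq2 called 1, Ptgds, in the test for any difference. The counts over all genes moved more, and the cause was not tested. With DESeq2, 559 genes were called for the slope, 379 for any difference, 83 from 3M to 18M, 53 from 3M to 6M, 55 from 6M to 12M and 28 from 12M to 18M, and 1075 and 1259 transcripts for the slope and from 3M to 18M. With the replicate block, edgeR called 22, 16, 0, 2, 2 and 3 genes in the same order, and 3 and 0 transcripts. No pairing of the libraries by replicate number was detected: correlations of deviations between libraries of 1 number ran from -0.0651 to 0.0665, and 3 of 12 libraries were closest to their own number. These correlations run over all genes that passed the filter, so they cannot exclude a shared factor that moves only some genes. With class = alone 11 genes were called for the slope, 7 for any difference and 0 from 3M to 6M. With all 12 libraries in a pairwise fit 21 were called from 3M to 18M, 4 from 3M to 6M and 1 from 12M to 18M. limma on FPKM called 17 from 6M to 12M and 8 from 12M to 18M. Without the filter 3 and 22 transcripts were called.

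Leaving out 1 library gave 13 to 116 genes for the slope (116 without 18M-1), 15 to 44 for any difference, 15 to 30 from 3M to 18M, 17 to 35 from 3M to 6M, 9 to 22 from 6M to 12M and 7 to 20 from 12M to 18M, and 3 to 8 and 8 to 25 transcripts. None of the 9 genes was called in these fits. The slope changed sign for Ptgds (-0.015 to 0.0050), Ptges (-0.0057 to 0.0058), Tbxas1 (-0.042 to 0.022) and Ptgr1 (-0.0068 to 0.00087), and the log2 fold change from 3M to 18M for Hpgds (-0.23 to 0.023), Ptges (-0.049 to 0.24), Tbxas1 (-0.73 to 0.34) and Ptgr1 (-0.069 to 0.064). The slope of Ptges was 0.00026 without the filter, 3.6e-05 with the replicate block, 9.2e-05 with rows of every class, 0.0019 with class = alone and 0.00051 with limma. From 3M to 18M Ptgr1 was -0.047 with class = alone and -0.011 with limma. Depth limits Ptgs1, Tbxas1 and Ptgs2, which had at most 36, 34 and 6 reads in a library.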

Other observations

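The Ptgr1 gene carried an assembled transcript of 3042 nt, MSTRG.14047.2, which took 16.1% to 38.0% of its reads. It keeps the sequence of an intron at chr4:58968878-58970990 (mm10, 2113 nt), whose coverage was 11.4 ± 1.96% (SD, n = 12) of that of the internal exons, from 8.17% in 3M-2 to 15.1% in 12M-3. The last exon of Ptgr1, which is 1174 nt long, had 15.5 ± 3.97%. By contrast the last exon of Hpgd had 112 ± 25.2% and that of Ptgis 154 ± 37.2% of their internal exons, and that of Ptges2 61.6 ± 9.63%.

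Other transcribed loci lie beside or within some of the genes. An unannotated locus, MSTRG.19681.1 at chr8:56292102-56294179, ends before the start of Hpgd at chr8:56294552 and had 636 reads over the 12 libraries. An intron of Tbxas1 holds 1700025N23Rik, whose 4 transcripts had 798 to 4760 reads each, against 188 for Tbxas1.

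In the RefSeq promoter table, which holds 9 of the 10 genes, 300-base promoters were searched on both strands for 5 short motifs, and shares are given over 32544 promoters. The Sp1 box GGGCGG stood in Ptgs2, Ptges, Ptgr1 and Hpgd (35.9% of all promoters), TATAAA in Tbxas1 and Hpgd (13.6%), CCAAT in Ptgr1 (37.4%), CACGTG in Ptgs2 and Ptges2 (7.17%) and TGACG, the first letters of a cyclic AMP element, in Ptgs2 (20.9%). None of the 5 was in the promoter of Ptgds. These are matches of letters, and no binding was measured.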
